A study of Mus musculus with 12 samples.

Results

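Argonaute (Ago) reads were summed over all peaks that carried the same gene name, and the sums of fetal liver lacking the miR-144/451 locus (KO) were set against those of wild-type liver (WT). The peak table held 106382 peaks, of which 84193 had a gene name and 22189 had none, so that 12102 gene names received a total. Of these totals, 4441 (36.7%) had enough reads to be tested, and 7661 did not. A tested gene held a median of 161 Ago reads over the 6 libraries and an untested gene a median of 17. A gene name covered a median of 3 peaks, 3535 names had 1 peak, and the most divided name had 269. No neighbouring peaks of a gene overlapped, the median gap between neighbours was 242 nt, and the median peak was 27 nt wide between its points of 50% coverage. No stretch of a peak thus entered a total more than once. A read counts for a peak that it overlaps by at least 16 bases, so a read across close neighbours could be counted in both.

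The material was liver of fetal C57BL/6J mice, either wild type or with the miR-144/451 locus knocked out. HITS-CLIP crosslinks RNA to the protein it touches, precipitates that protein and sequences the RNA fragments that come with it. WT Ago libraries 1, 9 and 10 and KO Ago libraries 3, 12 and 13 were compared, with WT IgG libraries 2, 6 and 11 and KO IgG libraries 4, 8 and 14 as control precipitates. The number is that in each library's title. The embryonic age, the way the locus was deleted and any pooling of livers are not stated by the labels. The design text counts 3 livers per genotype, but no label ties a library to its own embryo, so a p-value here rests on library-to-library spread, some of which may be technical. Whole liver holds many cell types, and fewer cells of a type cannot be told apart from less RNA per cell. A gene's amount of mRNA was not measured in these libraries, so a change of the message and a change of Ago binding per message cannot be told apart in a total either.

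Ago proteins carry microRNAs and are guided by them to messenger RNAs, mostly through pairing of the message with the microRNA's seed near its 5′ end. A message can hold sites for many microRNAs at once, so its summed Ago reads pool the sites of the deleted locus with those of every other microRNA bound to it. The locus makes miR-144 and miR-451a, both abundant in red cell precursors, and miR-451a is matured by the cutting activity of Ago2 rather than by Dicer. The fetal liver is the main site of red cell formation before birth. The mature sequences are shown because the deposited codes that split a gene's peaks below are matches to their seeds, with bases 2 to 8 in capitals, from RefSeq on GRCm38.p6.
miR-451a: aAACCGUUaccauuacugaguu
miR-144-3p: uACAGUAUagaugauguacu
miR-144-5p: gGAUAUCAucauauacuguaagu
They lie on the plus strand at chr11:78073186-78073207, chr11:78073047-78073066 and chr11:78073010-78073032. The DNA letters that pair with bases 2 to 8 are AACGGTT for miR-451a, ATACTGT for miR-144-3p and TGATATC for miR-144-5p. The 3 seeds differ, so a match to one is not a match to another.

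The Ago libraries held 147969 to 452157 reads in peaks, and between 77.9% and 88.0% of these lay in peaks with a gene name. This share was alike in WT 1 and KO 3 (78.4% and 77.9%), in WT 9 and KO 12 (87.7% and 88.0%) and in WT 10 and KO 13 (80.5% and 81.0%), although the labels pair no libraries. IgG libraries held 24622 to 42916 reads in peaks. Of 89 erythroid marker genes, 76 had peaks, and they took 4.57% to 5.40% of the peak reads in WT Ago libraries and 3.87% to 4.59% in KO. Of the globin genes and the haemoglobin chaperone, none had a peak under the names searched, which are the defining erythroid messages. Hepatocyte markers, with 33 of 35 genes, took 0.871% to 2.56% in WT and 1.62% to 3.07% in KO. Macrophage (14 of 18), granulocyte (17 of 17), megakaryocyte (8 of 14) and progenitor genes (11 of 14) each took at most 0.265% of any Ago library.

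In KO liver 235 of the 4441 tested totals were lower (5.29%) and 29 were higher (0.653%), by edgeR's quasi-likelihood test at a Benjamini-Hochberg adjusted p under 0.05. The median log2 change over all tested totals was 0.03, and 0.09 when libraries were scaled by size alone. The lower totals had a median log2 change of -1.29, with 175 past 2-fold and 29 past 4-fold. The higher ones had a median of 1.03, with 15 past 2-fold. The 3 KO libraries lay below the 3 WT libraries for 684 tested totals (15.4%) and above them for 514 (11.6%), and this held for each of the 235 lower and each of the 29 higher totals. Lower totals had a median of 14 peaks, against 11 for tested totals and 12 for higher ones. The count of lower totals fell to 133 without WT 1, 154 without WT 9, 134 without KO 12 and 115 without KO 13, and to 117 by DESeq2. With the 3 library pairs of like gene share entered as a block, an alternative added with the data known, 747 totals were lower and 486 higher. The count of higher totals was 5 without WT 1, 16 without KO 3, 12 without KO 12, 5 without KO 13 and 87 without WT 10, and 6 by DESeq2.

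The 10 lower totals with the smallest p are given first. Levels are given as CPM, the TMM-scaled count of a gene relative to all reads of the tested genes in that library, and a log2 change is KO over WT with its standard error. Cdkn2d, an inhibitor of the G1 cyclin-dependent kinases, had 701, 710 and 578 CPM in WT libraries 1, 9 and 10 and 190, 172 and 125 CPM in KO libraries 3, 12 and 13. The highest KO library lay far below the lowest WT library, and the log2 change was -2.01 ± 0.22 (adjusted p = 0.000432). Nek2, a kinase of centrosome separation, had 841, 837 and 621 CPM in WT and 154, 194 and 231 CPM in KO, a log2 change of -2.01 ± 0.22 (adjusted p = 0.000432). Racgap1, a GTPase-activating protein needed for cytokinesis, had 452, 530 and 436 CPM in WT and 161, 108 and 125 CPM in KO, a change of -1.89 ± 0.23 (adjusted p = 0.000733). Smc6, a subunit of a chromosome maintenance complex, fell from 486 ± 111 to 127 ± 19.2 CPM (SD, n = 3 each). In none of these genes did a WT library overlap a KO library.

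Rtf1, a subunit of a complex that travels with RNA polymerase II, had 369, 330 and 350 CPM in WT and 87.7, 101 and 115 CPM in KO, a log2 change of -1.79 ± 0.23. Ndufb5, an accessory subunit of respiratory complex I, had 348, 292 and 243 CPM in WT and 80.4, 44.8 and 19.2 CPM in KO, a change of -2.57 ± 0.33. The adjusted p was 0.000733 for both. Gm15703 had 228.5, 97.2 and 129 CPM in WT and 7.31, 3.73 and 9.62 CPM in KO, the latter being 1 read per library. Its 95 WT reads against 3 KO reads gave a WT to KO ratio of 24.0, with an exact 95% interval of 7.96 to 118 that covers counting error only. Hist4h4 fell from 741 ± 124 to 186 ± 48.8 CPM, but histone H4 genes have near-identical copies among which reads could be split. Fau, which encodes a ribosomal protein fused to a ubiquitin-like protein, fell from 416 ± 139 to 72.4 ± 4.90 CPM. Gm9843 fell from 367 ± 105 to 69.2 ± 3.36 CPM, with counts close to those of Fau in most libraries, so the pair may be one signal counted under both names.

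The higher totals were fewer and their changes smaller. Ssh1, a phosphatase that activates the actin-severing protein cofilin, had 171, 153 and 150 CPM in WT and 336, 377 and 404 CPM in KO, a log2 change of 1.23 ± 0.21 (adjusted p = 0.00327). Cfl2, a cofilin, rose from 103 ± 10.6 to 216 ± 35.5 CPM (adjusted p = 0.0246). Tnrc6a, a GW182 protein that binds Ago and recruits the deadenylation machinery, had 956, 899 and 893 CPM in WT and 1769, 1710 and 1453 CPM in KO, a change of 0.85 ± 0.17 (adjusted p = 0.00809). All 3 KO libraries lay above all 3 WT libraries in each of these genes. Elmsan1, a subunit of a histone deacetylase complex, had 441, 545 and 557 CPM in WT and 965, 855 and 1145 CPM in KO, a change of 0.93 ± 0.19 (adjusted p = 0.00979). Fam213a rose from 83.2 ± 14.0 to 216 ± 28.1 CPM and Pcgf3, a Polycomb ring finger protein, from 131 ± 6.71 to 265 ± 30.2 CPM. Mylip, a ubiquitin ligase of the LDL receptor, rose from 219 ± 23.3 to 422 ± 82.5 CPM, and Cnih1, a cargo receptor of the secretory pathway, from 101 ± 7.09 to 214 ± 31.9 CPM. The ribosomal protein gene Rpl37 and its retrocopy Rpl37rt both rose, but their peaks shared reads and 48.3% and 47.9% of their reads lay in shared peaks, and neither was called without those peaks. Of these 10 genes, the call was lost by DESeq2 for Pcgf3, Mylip, Cnih1, Rpl37, Rpl37rt and Cfl2, and without 1 or more single libraries for Elmsan1, Pcgf3, Mylip, Cnih1, Rpl37, Rpl37rt and Cfl2.

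**Figure D1:**
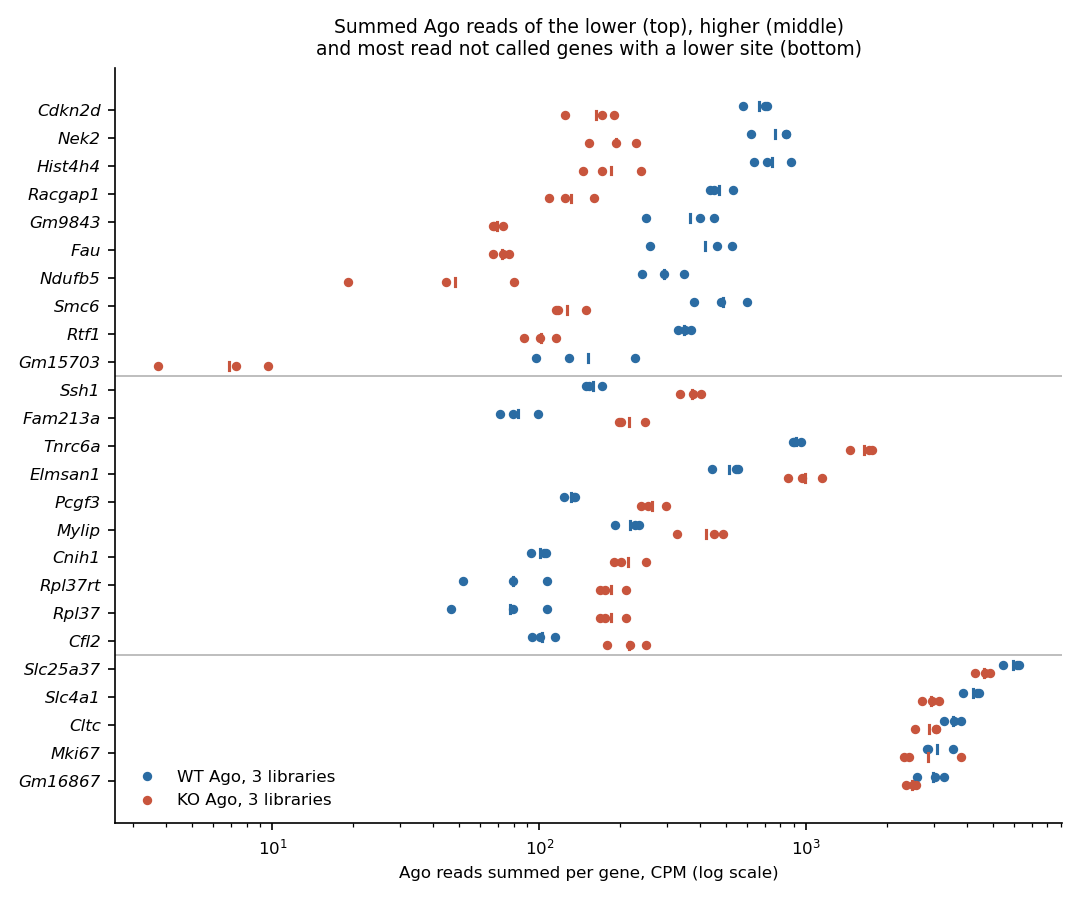
Summed Ago reads per gene in CPM on a log axis for the 10 lower totals and 10 higher totals with the smallest p and for the 5 most read genes with a lower single peak and no called total, with 1 point per library and a tick at the mean of 3 WT (blue) or 3 KO (red) libraries. The WT and KO points separate in the upper 20 genes, while in the bottom 5 the gaps are narrow and Mki67 overlaps.

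The same libraries were then tested peak by peak. Of 2425 peaks with enough reads, 428 were lower in KO (17.6%) and 34 were higher (1.40%), and 2174 of the tested peaks carried a gene name and lay in 1164 genes. At least 1 lower peak was found in 308 genes. Of these 308 genes the total was lower in 100 (32.5%), not called in 207 and higher in 1. A total contains the reads of its lower peaks and genes with a tested peak are deeply read, so the 32.5% and the 5.29% over all totals are not independent values. Among the 250 genes with a single lower peak 76 totals were lower, among the 58 with at least 2 it was 24, and among the 21 with at least 3 it was 6. Leaving out WT 10, KO 3 or KO 13 let more peaks be tested and gave 802, 986 and 904 lower ones, while higher peaks numbered 3 without WT 1, 14 without KO 12 and 54 without KO 3.

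In the 207 genes with a lower peak and no called total, the total's log2 change had a median of -0.36 and ran from -1.17 to 0.39, and 176 of the 207 were below 0. After removal of the peak with the largest loss, the rest of these genes had a median log2 ratio of -0.09, and 81 were at or above 0. The peak was picked for its loss and the genes for their calls, all on the same reads. A rest near 0 is thus largely set by that choice and tests nothing. Of the 235 lower totals, 100 held a lower peak and 135 did not. Of these 135, 127 had no peak with enough reads to be tested and 8 had a tested peak that was not lower. The 1 gene with a lower peak and a higher total was Frs2, an adaptor of growth factor receptors. Its total rose from 414 ± 37.6 to 672 ± 90.4 CPM (log2 0.69 ± 0.19, adjusted p = 0.0432), while its 3′ UTR peak at chr10:117070223-117070248, with a code for an 8-mer of miR-144-3p, fell by 1.57 on the log2 scale (adjusted p = 0.0238). Frs2 was named after its values were seen. Of the 29 higher totals 16 had no tested peak and 5 held a higher peak, and 28 genes held a higher peak in all.

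**Figure D2:**
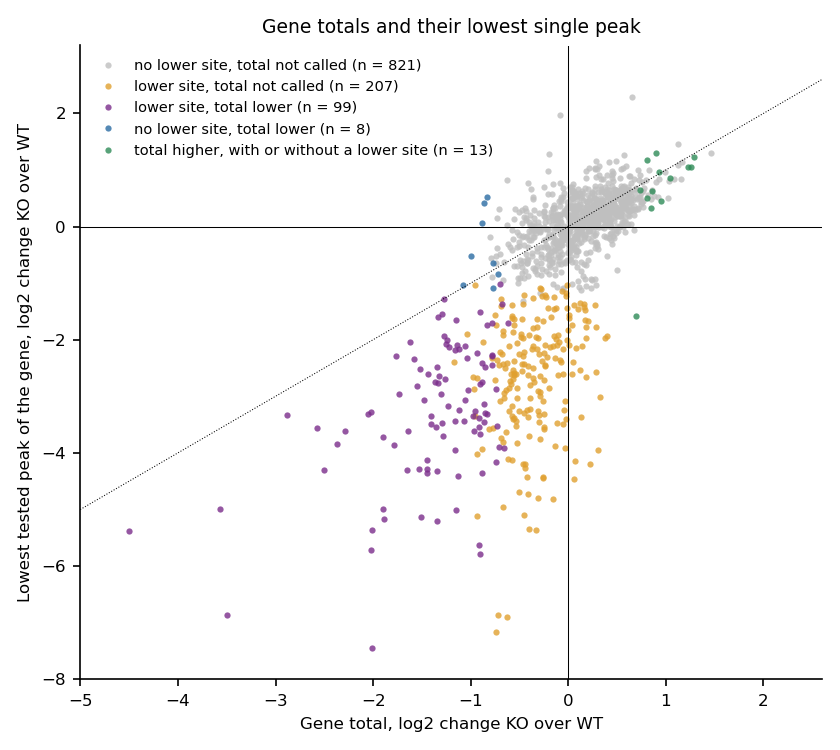
Log2 change of each gene total (horizontal) against the log2 change of the gene's lowest tested peak (vertical), for tested genes with more than 1 peak and a tested peak, coloured by the calls of total and peak. The 207 genes with a lower peak and no called total lie around a median total of -0.36, nearly all below the dotted line of equal change. They were chosen by these calls and the peak is the lowest of its gene, so that position is largely set by the choice.

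Whether a peak changed differently from the other peaks of its own gene was tested directly, with the peak and the summed rest of the gene in the same libraries. Of 1843 peaks in 949 genes, 299 (16.2%) in 241 genes were lower relative to the rest of their gene and 111 (6.02%) in 98 genes were higher. Of the 354 lower peaks that could be tested in this way, 286 were also lower than the rest of their gene. These were 211 of 240 in genes whose total was not called and 74 of 113 in genes whose total was lower. Peaks and genes were chosen here by calls on the same reads, so these shares describe them and do not compare the groups. Of the 111 peaks higher than the rest, 12 were higher in themselves and 94 were not called in themselves, with a median log2 change of 0.60 over the 111, and 62 lay in a gene that also held a peak lower than the rest. Peaks lower and peaks higher than the rest occurred together in 49 genes. The rest of a gene contains its lower peaks, so a peak that did not change can be higher relative to it. In 3′ UTRs 127 of 774 peaks were lower and 67 higher than the rest of the gene, in coding sequence 120 and 28 of 787, in introns 33 and 12 of 161 and in 5′ UTRs 13 and 2 of 61. The count lower than the rest was 196 without WT 1, 572 without KO 3 and 553 without KO 13.

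The 8 genes whose peaks differed from the rest with the smallest p had totals that were not called, except Tnfaip2. Over all tested totals, 4177 of 4441 were not called. A peak differs most from the rest where the rest did not fall, so the ranking itself favours such genes. Tnrc6b, another GW182 protein, had 2467, 2554 and 2228 CPM in WT and 2346, 2842 and 2347 CPM in KO over 129 peaks, a log2 change of 0.06 ± 0.16 (adjusted p = 0.869). The groups overlapped. Its 3′ UTR peak at chr15:80933052-80933081, with a code for a miR-451a seed match with a mismatch at position 7, took 8.21%, 6.57% and 6.73% of the gene's reads in WT and 0.623%, 0.131% and 0.410% in KO. Relative to the rest of the gene it fell by 4.54 ± 0.43 on the log2 scale (adjusted p = 5.65e-06). Larp1, an RNA-binding repressor of ribosomal protein mRNA translation, had totals of 976 ± 181 CPM in WT and 945 ± 98.3 CPM in KO, a log2 change of -0.05 ± 0.19 (adjusted p = 0.895). Its coding peak at chr11:58057054-58057076, with a miR-451a 6-mer, dropped from 265, 224 and 193 CPM to 21.9, 22.4 and 19.2 CPM, while the rest of the gene had 749 ± 184 CPM in WT and 923 ± 98.7 CPM in KO.

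Hnrnpa0, an RNA-binding protein of the heterogeneous ribonucleoprotein family, had a 3′ UTR peak at chr13:58126310-58126342 with a miR-451a 6-mer, which held 113 reads in WT and 3 in KO, a WT to KO ratio of 28.5 (exact 95% interval 9.51 to 140, counting error only). The rest of Hnrnpa0 had 280 ± 33.2 CPM in WT and 350 ± 35.9 CPM in KO. In Rhoa, a small GTPase that governs the actin cytoskeleton, a 3′ UTR peak at chr9:108336826-108336861 with mismatch codes for miR-451a and miR-144-3p took 63.6%, 51.4% and 60.5% of the gene's WT reads and 10.0%, 3.92% and 0% of its KO reads. The rest of Rhoa was 139 ± 15.5 CPM in WT and 210 ± 46.3 CPM in KO, and its total, with a log2 change of -0.62 ± 0.24, was not called (adjusted p = 0.143). Copa, a coatomer subunit of Golgi transport, had totals of 409 ± 32.8 and 450 ± 69.7 CPM, while its 3′ UTR peak at chr1:172121919-172121947, coded 7mer-A1 for miR-451a and 6-mer for miR-144-3p, went from 109, 133 and 100.0 CPM to 14.6, 11.2 and 9.62 CPM. Summed over the peaks listed in the authors' deposited table of differential peaks alone, a list made from these libraries, the Copa total was called lower, with a log2 change of -3.21. In Hipk1, a nuclear protein kinase, a 3′ UTR peak went from 136 to 17.5 CPM in the mean (log2 difference from the rest -3.04 ± 0.38), with totals of 2204 ± 305 and 2154 ± 277 CPM. Tnfaip2 was the 1 gene of this group whose total was lower, from 726 ± 54.0 to 461 ± 18.8 CPM (adjusted p = 0.0404). A single intron peak accounted for 87.3% of that loss, the rest was 478 ± 63.7 and 445 ± 26.7 CPM, and the call was lost in 10 of the alternative settings. Its uncoded peaks, which leave out this intron peak, went from 212 to 107 CPM on the same scale as the rest. They were also called lower in their own fit, which is scaled to uncoded reads alone (log2 -1.12, adjusted p = 0.0233). The coded and uncoded parts of Tnfaip2 showed no called difference (log2 0.31, adjusted p = 0.470).

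Among the most read genes with a lower peak and no called total, several are known erythroid messages. Slc25a37, the mitochondrial iron importer mitoferrin-1, held the most reads of the genes with a lower peak and no called total. Its totals were 5432, 6261 and 6134 CPM in WT and 4291, 4664 and 4896 CPM in KO over 223 peaks. The groups did not overlap, but the log2 change of -0.36 ± 0.15 was not called (adjusted p = 0.167). Of its 26 tested peaks 7 were lower and 0 higher, and the KO mean was below the WT mean for 131 of the 223 peaks and above it for 92. Its most changed 3′ UTR peak, at chr14:69244046-69244076 with a miR-451a mismatch code, had 389, 354 and 400 CPM in WT and 87.7, 44.8 and 77.0 CPM in KO. Control IgG also recovered Slc25a37, with 141, 166 and 272 reads in WT and 201, 201 and 335 in KO. The IgG libraries held 24622 to 42916 reads in peaks. Ago reads of Slc25a37 were 1046, 2125 and 859 in WT and 587, 1249 and 509 in KO, in libraries of 147969 to 452157. The part of IgG background in the Slc25a37 total was not tested. Slc4a1, the band 3 anion exchanger of the red cell membrane, had 4445, 4363 and 3877 CPM in WT and 3150, 2950 and 2713 CPM in KO, with no overlap, and a log2 change of -0.53 ± 0.15 that was not called (adjusted p = 0.0571). Of 24 tested Slc4a1 peaks 7 were lower and 0 higher. A 3′ UTR peak at chr11:102349176-102349209 was higher only relative to the rest of the gene (log2 difference 1.16 ± 0.27, adjusted p = 0.00364). This peak had 77.6 ± 9.25 CPM in WT and 119 ± 13.8 CPM in KO. The rest, which contains the lower peaks, went from 4151 ± 315 to 2819 ± 232 CPM. The Slc4a1 total was called lower by limma-voom and without WT 10.

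Cltc, the clathrin heavy chain, had 4 lower peaks of 19 tested, and its total went from 3548 ± 256 to 2889 ± 294 CPM (log2 -0.29 ± 0.16, adjusted p = 0.286). Mki67, the proliferation marker Ki-67, had 2856, 3541 and 2835 CPM in WT and 2317, 3805 and 2434 CPM in KO, so the groups overlapped. Of its 12 tested peaks 4 were lower, all in coding sequence and all with a miR-451a mismatch code. Gm16867, with 269 peaks the most divided name, had totals of 2974 ± 353 and 2481 ± 107 CPM (adjusted p = 0.347), and 7.51% of its reads lay in peaks shared with another name. Control IgG recovered Gm16867 as well, with 92, 153 and 229 reads in WT and 157, 209 and 288 in KO. Its Ago reads, in deeper libraries, were 499, 1116 and 426 in WT and 323, 673 and 267 in KO. The totals of Slc25a37, Slc4a1, Cltc, Gm16867 and Rhoa passed the threshold with the library pairs described above as a block, which was added with the data known. Over the authors' listed peaks alone these 5 totals and those of Mki67, Larp1 and Hnrnpa0 were called lower, at log2 -1.22 for Mki67, -1.15 for Larp1 and -0.70 for Hnrnpa0. That list was made from these same libraries, so such calls are not separate support.

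**Figure D3:**
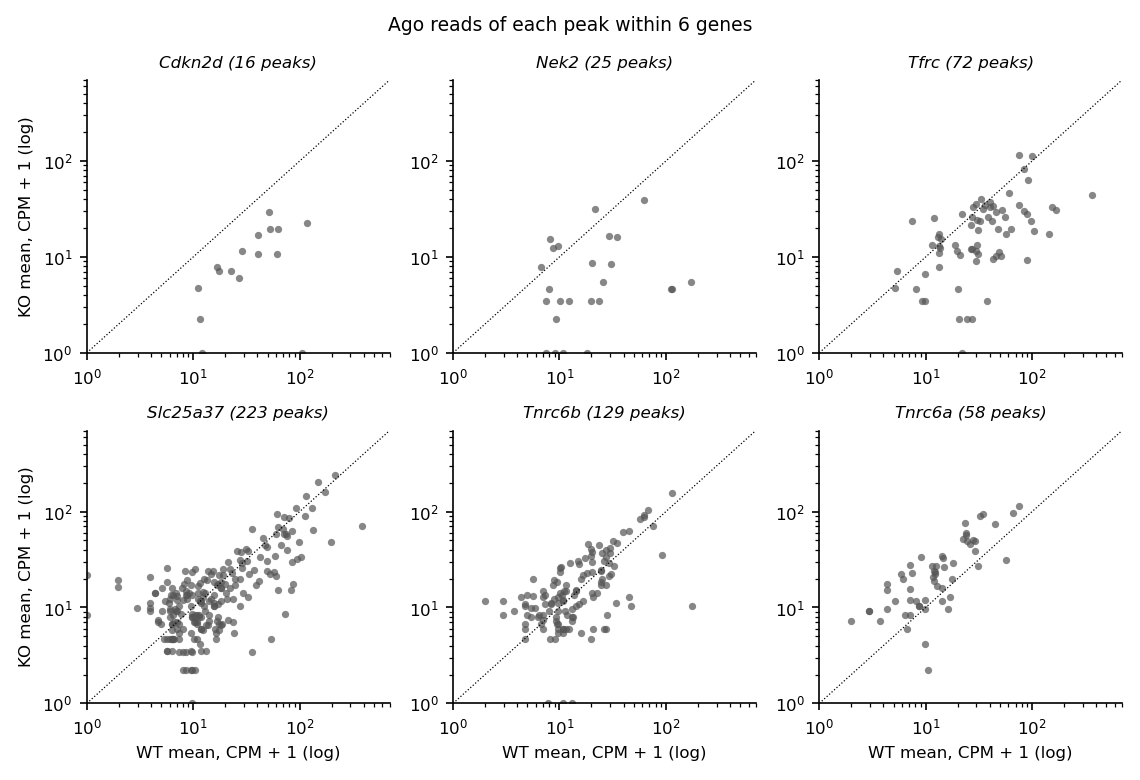
Mean CPM plus 1 in WT (horizontal) and KO (vertical), both on log axes, for every peak of 6 genes, with 1 point per peak and a dotted line of equal level. All 16 peaks of Cdkn2d lie below the line, 77 of 129 peaks of Tnrc6b lie above it with a single strong peak far below, and 49 of 58 peaks of Tnrc6a lie above it.

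In the 234 lower totals with at least 2 peaks, the loss was spread over the gene to differing degrees. The peak with the largest loss held a median of 36.9% of the gene's loss (quartiles 25.2% and 55.5%), and more than 50% in 70 genes. With that peak removed, the rest had a median log2 ratio of -0.94 and lay below 0 in 230 of the 234 genes. The peak was picked for its loss and the genes for their lower total, so these values describe the genes and test nothing. In Cdkn2d the top peak, in the 3′ UTR at chr9:21288604-21288670 and without a code, held 73 WT reads and 0 KO reads, at least 18.4-fold lower in KO with 3 reads over the group as the floor, yet it made up 20.7% of the loss. The rest of Cdkn2d went from 560 ± 58.2 to 162 ± 33.5 CPM. In Nek2 3 of 3 tested peaks were lower, and the rest without the top peak went from 596 ± 90.1 to 188 ± 33.9 CPM. Its 3 lower peaks were 2 in the 3′ UTR with miR-451a codes (7mer-A1 and 6-mer) and 1 in coding sequence with a miR-144-3p 7mer-m8 code, with 118, 76 and 72 reads in WT and 2 each in KO. The opposite held in Rtf1, where 73.8% of the loss lay in 1 coding peak with a miR-451a 6-mer, and in Ybx1, an RNA-binding protein of translation control, with 87.5%.

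Of the lower totals without a lower peak, the 5 with the smallest p had no tested peak. Agpat4, an acyltransferase of phospholipid synthesis, had 353, 524 and 464 CPM in WT and 110, 142 and 135 CPM in KO over 25 peaks, none of which had enough reads to be tested. Its log2 change was -1.78 ± 0.24 (adjusted p = 0.000864), and its top peak held 13.9% of the loss. Slc2a4, an insulin-responsive glucose transporter, fell from 264 ± 27.6 to 65.8 ± 24.5 CPM over 15 peaks, with 16.1% of the loss in the top peak. Fgd6, a guanine nucleotide exchange factor, fell from 265 ± 23.0 to 77.1 ± 16.8 CPM, with 27.0% in the top peak. Dnajc7, a co-chaperone, fell from 207 ± 19.4 to 52.4 ± 16.7 CPM, and Cebpg, a bZIP transcription factor, from 282 ± 12.5 to 93.9 ± 19.3 CPM, with 33.6% and 29.2% in the top peak. No WT and KO values overlapped in these 5 genes. In the authors' deposited table, 1503 genes had at least 1 peak with a lower value in KO at their threshold. Of the 1207 among them with a tested total, 165 totals were lower, 1040 were not called and 2 were higher. Of the 135 lower totals without a lower peak in the present fit, 91 had such a peak in the authors' deposited table.

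To divide each gene without reference to its reads, its peaks were split into those with any deposited seed code for one of the 3 microRNAs of the locus and those with none. Such codes include single mismatches, and 34458 of the 84193 peaks with a gene name had one. Of 1897 genes in which both parts had enough reads, the coded part was lower relative to the uncoded part in 460 (24.2%) and higher in 8 (0.422%). The median log2 difference was -0.45, and 1534 of the 1897 genes lay below 0. The median log2 ratio of KO to WT was -0.31 for coded and 0.18 for uncoded peaks. Of the 460 genes, 67 had a lower total and 393 a total that was not called. The count fell to 247 without KO 12. With codes of a 6-mer or longer alone, 132 of 251 genes were lower and the median difference was -1.03, and with mismatch or offset codes alone, an alternative added after the data were seen, 244 of 1604 were lower with a median of -0.32.

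Totals over uncoded peaks alone were tested for 2714 genes. Of these, 65 were lower (2.39%) and 2 were higher (0.0737%), the latter being Ssh1 and Tnrc6a. The uncoded total was lower in 56 of the 154 lower genes in which it could be tested, with a median log2 change of -0.94 and 147 of 154 below 0. In the genes with a lower peak and no called total it was lower in 7 of 197, with a median of -0.16 and 129 of 197 below 0. Both groups were chosen by the call on a total that contains these uncoded reads, so the contrast between them is largely set by that choice and supports nothing. In Cdkn2d the uncoded peaks went from a mean of 425 to 109 CPM and its coded peaks from 238 to 53.7 CPM, with a log2 difference between the parts of -0.25 ± 0.37 (adjusted p = 0.672). Racgap1 and Smc6 likewise showed no called difference between parts (adjusted p = 0.934 and 0.712). In Rtf1 the parts differed, with coded peaks at 273 CPM in WT and 40.6 CPM in KO and uncoded peaks at 76.6 and 60.8 CPM, a difference of -2.52 (adjusted p = 5.54e-06). The number of lower uncoded totals depended on the libraries, with 16 without WT 1, 14 without WT 9, 104 without WT 10, 29 without KO 3, 31 without KO 12 and 39 without KO 13. It was 26 by DESeq2.

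**Figure D4:**
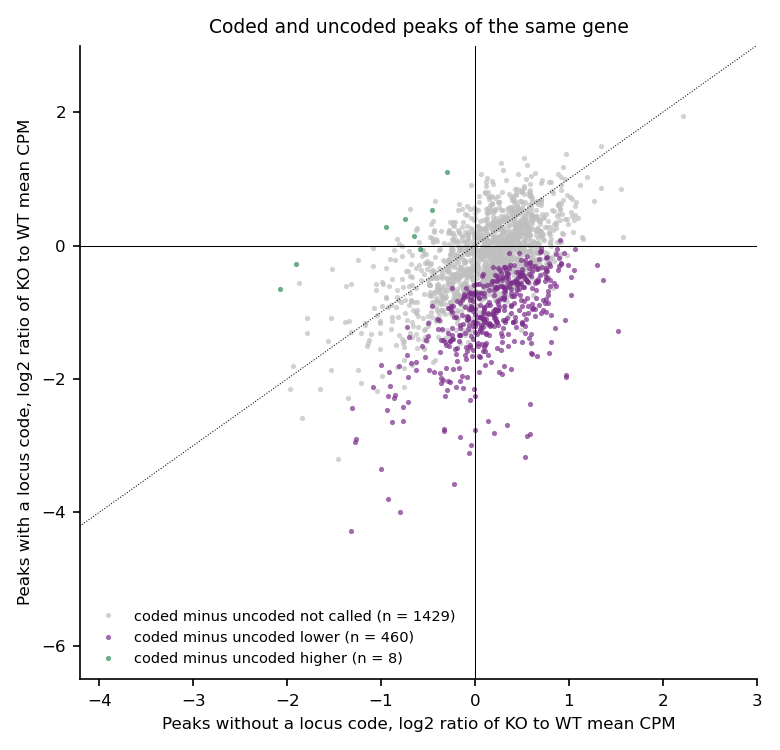
Log2 ratio of KO to WT mean CPM over a gene's peaks without (horizontal) and with (vertical) a seed code for the locus, 1 point per gene, with a dotted line of equal ratio and colours for the call of the difference. The 460 genes in which the coded part was lower form a band below the line that spans positive and negative uncoded ratios.

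Totals were also grouped by the longest seed match that any of their peaks carried. Among 343 tested genes with a miR-451a match of 7 bases or more, 53 totals were lower (15.5%) and 0 higher. Their median log2 change was -0.32, and over all tested totals 5.29% were lower and 0.653% higher. Among 830 genes with such a match for miR-144-3p and none for miR-451a, 51 were lower (6.14%) and 4 higher, with a median of -0.10. The 3146 genes with other codes alone had 131 lower (4.16%) and 22 higher totals and a median of 0.09. The 122 genes with no code had 0 lower and 3 higher totals and a median of 0.41. These groups differ in size of gene, since their median number of peaks was 17, 16, 10 and 4, and a gene with more peaks holds more codes. The part of peak number in these counts was not tested.

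Of 25 genes described in the literature as targets of miR-451a or miR-144, 16 totals were tested, 1 was lower and none higher, near the 5.29% lower and 0.653% higher over all tested totals, with a median log2 change of -0.01 against 0.03 over all tested totals. The lower one was Ezh2, the catalytic subunit of Polycomb repressive complex 2, with 763, 669 and 557 CPM in WT and 395, 306 and 279 CPM in KO, without overlap (log2 -1.03 ± 0.21, adjusted p = 0.00910). Both of its tested peaks were lower, and both lay in coding sequence. The call was lost without KO 13. Cab39, a scaffold of the LKB1 kinase, had 332, 354 and 293 CPM in WT and 212, 205 and 202 CPM in KO, a change of -0.67 ± 0.21 that was not called (adjusted p = 0.0720). Its 3′ UTR peak with a miR-451a 7mer-m8 at chr1:85849311-85849342 was lower than the rest of the gene (log2 difference -1.31 ± 0.43, adjusted p = 0.0335), a call lost when any library other than WT 9 was left out. Ywhaz, a 14-3-3 protein, had 649, 554 and 528 CPM in WT and 365, 381 and 433 CPM in KO (log2 -0.56 ± 0.19, adjusted p = 0.0982). Both totals passed in the fit blocked by library pair and over the authors' listed peaks alone, a list made from these libraries. Its 3′ UTR peak with a miR-451a 7mer-m8, at chr15:36772144-36772175, took 14.4%, 14.9% and 14.9% of the gene's reads in WT and 2.00%, 2.94% and 6.67% in KO (adjusted p = 0.00276 against the rest), and 18.3% of the gene's reads lay in peaks shared with another name.

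Among the other literature targets the totals lay on both sides of 0. Rab14, a small GTPase of vesicle traffic, had 537 ± 59.3 CPM in WT and 585 ± 76.8 CPM in KO (adjusted p = 0.729). Its coded peaks went from 170 to 104 CPM and its uncoded peaks from 367 to 481 CPM, a log2 difference of -1.16 (adjusted p = 0.0013). Over the authors' listed peaks alone, a list made from these libraries, the Rab14 total was lower, at -2.12. Adam10, a membrane protease, had 1181 ± 176 and 1167 ± 143 CPM, and the transcription factors Myc, Nfe2l2 and Zfx had log2 changes of -0.08, 0.04 and 0.01. Celf2, Mif, Mtor, Rac1, Txnl1, Vav3 and Ostf1 ran from -0.48 to 0.79, and none was called in the fit without a block, with Mif at 52.7% of its reads in shared peaks. In the blocked fit the totals of Mtor and Ostf1 were called higher, and that of Mtor also over the authors' listed peaks alone. As said above, that list was made from these libraries. Among the 14-3-3 proteins as a family, 6 totals were tested and none was called, with a median of -0.01 and 1 lower at an unadjusted p under 0.05.

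Genes of the red cell membrane and skeleton had 3 lower and no higher totals of 21 tested, against 5.29% lower over all tested totals, with a median log2 change of -0.43 and 17 below 0. These were Cd47, which keeps macrophages from engulfing the cell, from 1990 ± 228 to 1062 ± 124 CPM (adjusted p = 0.00718), the water channel Aqp1, from 176 ± 36.4 to 66.5 ± 25.7 CPM (adjusted p = 0.0101), and the Kell blood group glycoprotein Kel, from 617 ± 117 to 352 ± 77.7 CPM (adjusted p = 0.0436). Cd47 kept its call in all settings except exon peaks alone, Aqp1 lost it without WT 9 or KO 12, and Kel lost it in 6 settings. Of the 8 genes of this list with a lower peak, the total was not called in 7, against 207 of 308 over all genes with a lower peak. Over the list 20 of 97 tested peaks were lower, against 17.6% of all tested peaks. Coded peaks were lower than uncoded ones in 8 of 20 genes, against 24.2% of all genes so tested. Beside these totals, 29 of 30 tested hepatocyte totals were above 0, with a median of 0.52. None was called by edgeR, although 2 were higher and 0 lower before adjustment at 0.05, and none of the list's 121 tested peaks was called. Alb, the most read of them in WT, had 4666 ± 3257 CPM in WT and 6274 ± 2941 CPM in KO. The part of cell composition in the erythroid totals was not tested.

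Genes of haem synthesis and iron had 3 lower and no higher totals of 24, against 5.29% and 0.653% over all tested totals, with a median of -0.21. Tfrc, the transferrin receptor that brings iron into red cell precursors, had 3022, 3397 and 3542 CPM in WT and 1762, 1520 and 1462 CPM in KO, without overlap, a log2 change of -1.07 ± 0.16 (adjusted p = 0.0015). Of its 10 tested peaks 6 were lower, and the KO mean lay below the WT mean for 59 of its 72 peaks. The strongest, in the 3′ UTR at chr16:32632659-32632716 with a miR-144-3p 7mer-m8, took 9.79%, 10.8% and 12.5% of the reads in WT and 1.24%, 2.70% and 4.61% in KO. The rest of Tfrc fell as well, from 2952 ± 199 to 1538 ± 180 CPM, and its uncoded peaks alone were called lower (log2 -0.87, adjusted p = 0.0182). Ppox, the penultimate enzyme of haem synthesis, fell from 552 ± 69.3 to 211 ± 53.2 CPM and Alad, its second enzyme, from 806 ± 176 to 378 ± 135 CPM, a call lost without WT 1, KO 12 or KO 13. Lower peaks were found in 10 genes of this list, and in 7 of them the total was not called. Over all genes with a lower peak, 207 of 308 totals were not called. In this list 26 of 109 tested peaks were lower, against 17.6% of all tested peaks.

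Regulators of erythropoiesis had 4 lower totals of 28, against 5.29% over all tested totals, with a median of -0.04. Epor, the erythropoietin receptor, had 691, 745 and 557 CPM in WT and 285, 351 and 240.5 CPM in KO (log2 -1.16 ± 0.21, adjusted p = 0.005). A coding peak at chr9:21960537-21960567, with a miR-451a 6-mer, held 44.1% of the loss, and the rest of Epor went from 488 ± 93.6 to 280 ± 55.6 CPM. Ube2l6, a conjugating enzyme of the ISG15 pathway, fell from 740 ± 61.3 to 277 ± 16.5 CPM, and Xpo7, a nuclear export receptor induced in late erythroblasts, from 1811 ± 309 to 923 ± 164 CPM, a call lost without KO 3. Bcl2l1, which encodes the survival protein Bcl-xL, fell from 677 ± 23.2 to 388 ± 91.4 CPM. The transcription factors Gata1 and Klf1 had log2 changes of -0.06 and 0.00 and were not called.

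Of the cell division list 6 totals of 40 were lower and none higher, against 5.29% lower over all tested totals, with a median of -0.46 and 35 below 0. Beside Nek2 these were the mitotic kinesin Kif11, from 1114 ± 180 to 406 ± 52.6 CPM (adjusted p = 0.000864), the spindle midzone protein Prc1, from 1088 ± 60.7 to 654 ± 32.9 CPM, the spindle assembly factor Tpx2, from 318 ± 40.5 to 168 ± 20.6 CPM, the kinetochore motor Cenpe, from 500 ± 118 to 266 ± 56.5 CPM, and the ribonucleotide reductase subunit Rrm2, from 799 ± 133 to 494 ± 42.3 CPM. In all 6 the WT and KO libraries did not overlap. The Prc1 call was lost in 5 settings. Top2a, with 3 lower peaks of 11 tested, had totals of 2828 ± 457 and 2209 ± 193 CPM and was not called. As for the erythroid lists, the part of cell composition was not tested.

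The Ago silencing pathway had 2 lower totals and 1 higher total of 22, against 5.29% lower and 0.653% higher over all tested totals, with a median of -0.05. Ybx1 fell from 192 ± 21.7 to 48.4 ± 21.5 CPM, and Xpo5, which exports microRNA precursors from the nucleus, from 190 ± 37.0 to 73.3 ± 39.2 CPM (adjusted p = 0.0357), a call lost in 6 settings. Tnrc6a was the higher one. The log2 change of Ago2 was 0.10 ± 0.18 (adjusted p = 0.792). Of 16 FoxO3 and antioxidant genes, Gabarapl1, an autophagy protein, fell from 105 ± 11.2 to 18.7 ± 3.53 CPM, and Cited2, a transcriptional coregulator, rose from 265, 279.9 and 249.9 CPM to 453, 403 and 491 CPM, a call lost in 9 settings. Foxo3 itself changed by 0.09 ± 0.21 (adjusted p = 0.849). Of 23 translation factor genes, Eif5 fell from 1000.4 ± 97.6 to 454 ± 146 CPM and Eif4a2 rose from 170 ± 21.5 to 312 ± 46.9 CPM, the latter a call lost in 7 settings. No total was called among 6 macrophage, 10 granulocyte, 3 megakaryocyte and 6 progenitor genes, whose medians were 0.15, 0.19, 0.32 and 0.12, with 2 macrophage totals lower and 0 of the others at an unadjusted p under 0.05.

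**Figure D5:**
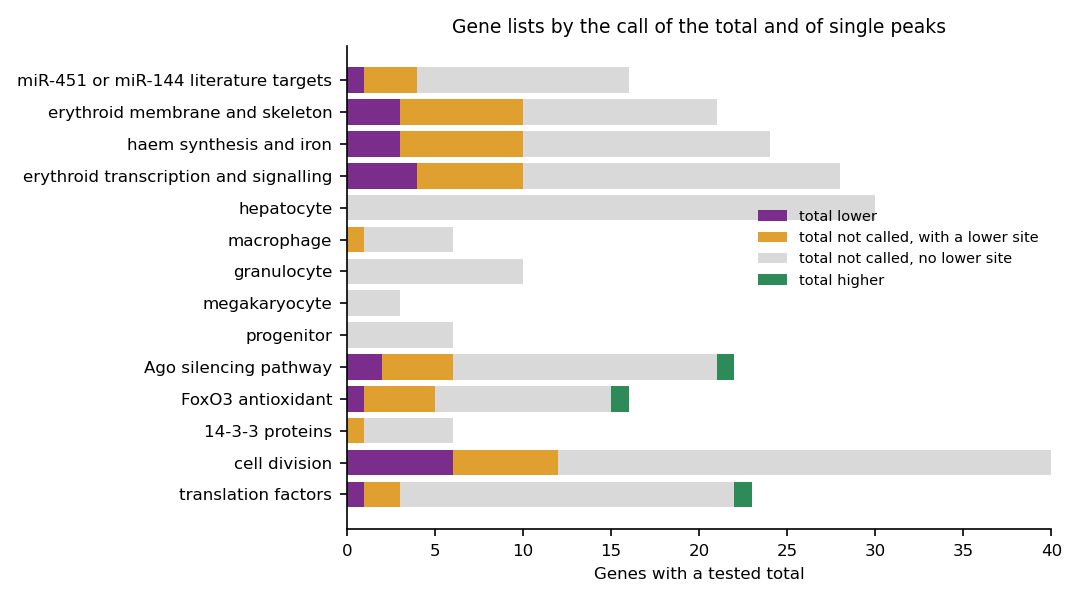
Number of genes with a tested total in each gene list (bar length), divided into totals lower, totals not called with and without a lower single peak, and totals higher. In the lists of membrane and skeleton, haem and iron, and cell division, 10 of 21, 10 of 24 and 12 of 40 genes were either lower in total or not called with a lower peak, and in the hepatocyte list none of 30. Over all 4441 tested totals, 235 were lower and 207 were not called with a lower peak. These 4 lists held 97, 109, 64 and 121 tested peaks, and a lower peak can be found only among tested ones.

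In the IgG libraries 251 gene totals could be tested, and 0 were lower (0.0%) and 0 higher (0.0%) in KO, by edgeR, with 2 at an unadjusted p under 0.05. DESeq2 and limma-voom also called 0, each with 1 at an unadjusted p under 0.05. The lower Ago totals held a median of 11 IgG reads over the 6 IgG libraries against 236 Ago reads over the 6 Ago libraries. These are raw reads, and the IgG libraries held 24622 to 42916 reads in peaks against 147969 to 452157 in the Ago libraries. The part of IgG background in the lower totals was not tested. An IgG total could be tested for 11 of the 235 lower and 2 of the 29 higher genes. Among these, Tfrc had an IgG log2 change of -0.17 ± 0.43, Cd47 of -0.28 ± 0.39 and Xpo7 of -0.75 ± 0.44, none of which was called (adjusted p = 0.981 each). Slc4a1 and Slc25a37 had IgG changes of -0.05 ± 0.44 and 0.53 ± 0.53.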

How the data were processed

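The authors' deposited table gave raw read counts per peak and library, maximum coverage (a signal not scaled for depth) and seed codes (a score), and their second deposited table gave log2 fold changes with FDR-adjusted p-values. The submitters' processing notes name mm10, STAR, cutadapt, limma and bedtools, without versions. Per the deposited column description, a read counts where it overlaps a peak by at least 16 bases. Counts were summed by gene name and tested with edgeR 4.0.16 (R 4.3.3; TMM scaling; filterByExpr, count minimum 10, total minimum 15; adjusted p threshold 0.05). Parts of a gene were compared in a stacked fit with library as a block. DESeq2 1.42.0 and limma 3.58.1 were alternatives, as were other filters, scalings, peak sets and omitted libraries. Names were those of the files, and 11136 matched a RefSeq symbol and 512 a synonym. Of the names 15 were date-like and are not printed. Peaks of different names were marked as sharing reads where counts agreed within 3% in totals of at least 60 reads. Fits were tested on simulated data, where 2-fold changes were recovered in 44.4% of gene totals, 23.9% of peaks and 55.2% of uncoded totals. For coded against uncoded parts it was 18.6%, for peaks against the rest 2.70% and for IgG totals 21.4%. Changes of 4-fold were recovered in 76.1% to 98.9% over these fits. A total, peak or part that was not called may thus still have changed. Genes named are those with the smallest p per comparison, the most read, up to 3 called list members by p (10 and 10 for totals, 8 for peaks, 5 and 5 for the other kinds) and tested literature targets, of which 1 is not reported here. Alb, Gata1, Klf1, Ago2, Foxo3, Top2a, Frs2 and further called list members were named after their values were seen. Members and lists were chosen with earlier results of these data known.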

Additional observations from a re-analysis of the deposited data

Results flagged for a closer look

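For Elmsan1 the KO libraries lay above the WT libraries with the Ago antibody and below them with control IgG. In Ago libraries its log2 change was 0.9294 (0.93) with all 3 KO libraries above all 3 WT libraries. In IgG libraries it had 1957, 2436 and 1996 CPM in WT and 1552, 1762 and 211 CPM in KO, a log2 change of -0.78 ± 0.51 that was not called (adjusted p = 0.981, edgeR), with every KO library below every WT library. These rest on 14, 17 and 11 reads in WT and 13, 9 and 1 in KO, so the lowest value is a single read. CPM in IgG libraries are relative to the 251 tested IgG totals, so their height cannot be set against Ago CPM. The difference between antibodies was not tested.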

How the results depend on the processing

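Leaving out each Ago library in turn gave 115 to 319 lower and 5 to 87 higher totals, 304 to 986 lower and 3 to 54 higher peaks, 14 to 104 lower and 1 to 19 higher uncoded totals, 196 to 572 peaks lower than the rest of their gene, and 247 to 449 genes with a lower and 3 to 7 with a higher coded part. DESeq2 gave 117 lower and 6 higher totals, 7 higher peaks, and 26 lower and 1 higher uncoded totals. Without a filter there were 17 higher totals, 2704 lower peaks and 4 higher uncoded totals. Scaling by library size alone gave 69 higher peaks and 6 higher uncoded totals. The peaks listed in the authors' deposited table, itself made from these libraries, gave 127 higher totals and turned the Copa and Rab14 totals to -3.21 and -2.12. With the library pairs as a block, added after seeing the data, there were 747 lower and 486 higher totals, 201 higher peaks, and 295 lower and 140 higher uncoded totals. diffSpliceDGE gave 107 peaks lower and 52 higher than the rest. Counting only matches of a 6-mer or longer as coded gave 132 lower and 2 higher genes, and 158 lower and 16 higher uncoded totals. Mismatch or offset codes alone gave 244 lower genes. The causes were not tested. Among the named totals 984 values kept their side of the threshold, 86 lost a call and 22 gained one, and among the named peaks set against the rest of their gene 330 kept it, 36 lost and 2 gained one. The sign changed without a call in either setting for 57 named values. The labels share no library numbers between groups, and the pairs used for the block were taken from like shares of reads in genes, not from the design. Depth let 2425 of 106382 peaks be tested on their own, so a total that is lower without a lower peak need not lack one.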
